A study of Mus musculus with 8 samples.

Results

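The core and naive pluripotency factors are the transcription factors that hold mouse embryonic stem cells (mESCs) in their self-renewing state, together with a marker of that state. The 10 genes described here, *Pou5f1*, *Sox2*, *Nanog*, *Klf2*, *Klf4*, *Klf5*, *Esrrb*, *Tfcp2l1*, *Tbx3* and *Zfp42*, were taken by name from a table of 55385 genes, and all 10 were found and passed the filter on low counts. The samples were 8 RNA-seq libraries of R1 mESCs, a wild-type mouse embryonic stem cell line. Of these, 3 had a small hairpin RNA against the 3′ UTR of *Eftud2* (shRNA1), 3 a hairpin against its coding sequence (shRNA2), and 2 a non-targeting hairpin (nt-shRNA). *Eftud2* encodes a GTPase of the U5 snRNP, a core part of the spliceosome, and the comparison asks how these genes stand when it is knocked down (KD). All groups were grown in N2B27 medium with 2i and LIF on poly-L-ornithine and laminin, infected with lentivirus over 2 days and selected with puromycin for 3 days. The controls therefore also carried virus, drug selection, LIF and both kinase inhibitors, and no uninfected cells were among the samples. The labels call the libraries biological replicates of 1 cell line, so p-values measure the spread between such cultures.

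OCT4 (encoded by *Pou5f1*) and SOX2 bind DNA side by side and, with NANOG, form the core of the pluripotency network. Around this core, the Krüppel-like factors KLF2, KLF4 and KLF5, the orphan nuclear receptor ESRRB, TFCP2L1 and TBX3 sustain the naive state of the early epiblast. LIF acts through STAT3 and inhibition of GSK3 relieves repression by TCF7L1, and both feed into several of these genes. *Zfp42* encodes REX1, a zinc finger protein widely used as a marker of naive cells.

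The upstream windows of these genes were searched for short motifs of the families the network is built from. The windows with POU letters are shown because they carry the recognition sequence of the OCT4 family. They lie upstream of *Nanog* and *Zfp42*, which were higher with both hairpins, and of *Sox2*, which was called with neither. The sequences are the 250 bases before the start site in RefSeq (GRCm38.p6), 5′ to 3′ on the strand of the gene. The counted *Sox2* gene begins at 34650405, downstream of the RefSeq start site used for its window (34649995), so that window does not adjoin it. Capitals mark matches on either strand to the POU motif ATGCAAA or the SOX motif CATTGT. The windows lie at chr6:122707239-122707488 (plus strand) for *Nanog*, chr8:43307010-43307259 (minus strand) for *Zfp42* and chr3:34649745-34649994 (plus strand) for *Sox2*.
Nanog: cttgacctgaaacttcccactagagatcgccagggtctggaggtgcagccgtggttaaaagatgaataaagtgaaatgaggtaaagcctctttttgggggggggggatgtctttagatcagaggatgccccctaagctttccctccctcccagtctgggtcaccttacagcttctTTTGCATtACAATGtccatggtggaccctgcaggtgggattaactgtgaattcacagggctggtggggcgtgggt
Zfp42: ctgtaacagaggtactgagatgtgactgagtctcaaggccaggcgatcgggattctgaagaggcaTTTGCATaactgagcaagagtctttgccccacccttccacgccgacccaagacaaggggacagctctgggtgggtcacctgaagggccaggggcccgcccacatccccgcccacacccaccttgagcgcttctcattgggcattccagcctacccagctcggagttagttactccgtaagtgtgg
Sox2: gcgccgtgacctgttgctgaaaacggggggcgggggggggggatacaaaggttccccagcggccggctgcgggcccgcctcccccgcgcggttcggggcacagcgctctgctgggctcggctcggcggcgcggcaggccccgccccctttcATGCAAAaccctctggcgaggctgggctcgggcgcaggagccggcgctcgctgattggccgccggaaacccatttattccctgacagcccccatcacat

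The set of upstream windows used here held an entry for 8 of the 10 genes, and none for *Klf5* and *Tbx3*. The POU letters were found in 3 of the 8 windows, those printed above, and in 4.13% of all 32817 windows of this length. The SOX letters were found only in *Nanog* among the 8, and in 10.7% of all windows. In *Nanog* the POU match ran from 75 to 69 bases before the start site and the SOX match from 67 to 62, so that a single base lay between them. Matches are those of 1 window per gene, although *Nanog*, *Pou5f1* and *Esrrb* had 2 entries each. The STAT motif TTCNNNGAA was found in *Esrrb* alone of the 8 (7.01% of all windows). The nuclear receptor motif AAGGTCA (4.08%), the TCF motif CTTTGA (13.8%) and the T-box motif GGTGTGA (3.33%) were in none of the 8. The KLF motif CCNCNCCC was in all 8 windows, and in 45.9% of all windows. After these matches were seen, the narrower letters CCACNCCC, which are a subset of CCNCNCCC, were also searched, and they were in 4 of the 8 windows (*Pou5f1*, *Nanog*, *Tfcp2l1* and *Zfp42*) and in 15.9% of all windows. These are matches of letters, not measured binding.

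The libraries held between 19569525 and 29871048 counts, and each member had at least 2878 counts in every library. Levels are given as CPM (counts divided by library size) after TMM normalization, and a gene was called when edgeR's quasi-likelihood test gave it a p under 0.05 after adjustment over all 17445 tested genes. The targeted transcript was measured first. *Eftud2* stood at 262.3 and 255.7 CPM with nt-shRNA, at 231.9, 229.2 and 225.3 CPM with shRNA1, and at 198.2, 202.1 and 234.7 CPM with shRNA2. Every KD library lay below both controls. The log2 fold change passed the threshold with shRNA2 (-0.29, adjusted p = 0.00122) and not with shRNA1 (-0.18, adjusted p = 0.0514), and the difference between the hairpins did not pass (-0.11, adjusted p = 0.164). Without shRNA2 replicate 3, the highest library of that group, it was -0.19 and passed (adjusted p = 0.0127). It was -0.07 (adjusted p = 0.5) without shRNA2 replicate 1 and -0.08 (adjusted p = 0.405) without shRNA2 replicate 2, and did not pass. The shRNA1 value lay close to the threshold and passed in 5 of 15 other settings, among them the replicate block (-0.21, adjusted p = 0.0206), while with library size as the only scaling it was -0.06 (adjusted p = 0.498). In the paper's qPCR, the loss of *Eftud2* was larger with each hairpin than in these libraries, and higher with shRNA2 than with shRNA1. Its western blot showed less EFTUD2 protein with each hairpin. In bulk RNA, fewer cells of a kind and less RNA per cell cannot be told apart, here and in all values that follow.

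*Pou5f1* was lower with both hairpins, *Sox2* was called with neither, and the other calls were all higher, in 5 genes with shRNA1 and 8 with shRNA2. With shRNA1, the 5 higher genes of the 10 were *Nanog*, *Klf2*, *Klf4*, *Tbx3* and *Zfp42*, while 1 was lower and 4 were not called, where 13.8% of all tested genes were called higher and 17.1% lower. With shRNA2, 8 were higher, 1 was lower and 1 was not called, against 27.2% and 28.7% of all tested genes. Without nt-shRNA replicate 1, *Klf2* and *Zfp42* were not called with shRNA1, which left 4 of the 10 genes called instead of 6, and 1248 of 18063 tested genes were then called higher. The median log2 fold change of the 10 genes was 0.15 with shRNA1 and 0.41 with shRNA2, and that of all tested genes was -0.01 and 0.00. Both comparisons use the same 2 nt-shRNA libraries, so their values are set side by side and are not independent of each other. With shRNA1, 6 genes had every KD library above both controls (26.6% of all genes) and 2 had every one below (30.2%). With shRNA2, these numbers were 8 (35.4%) and 1 (36.0%).

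**Figure D1:**
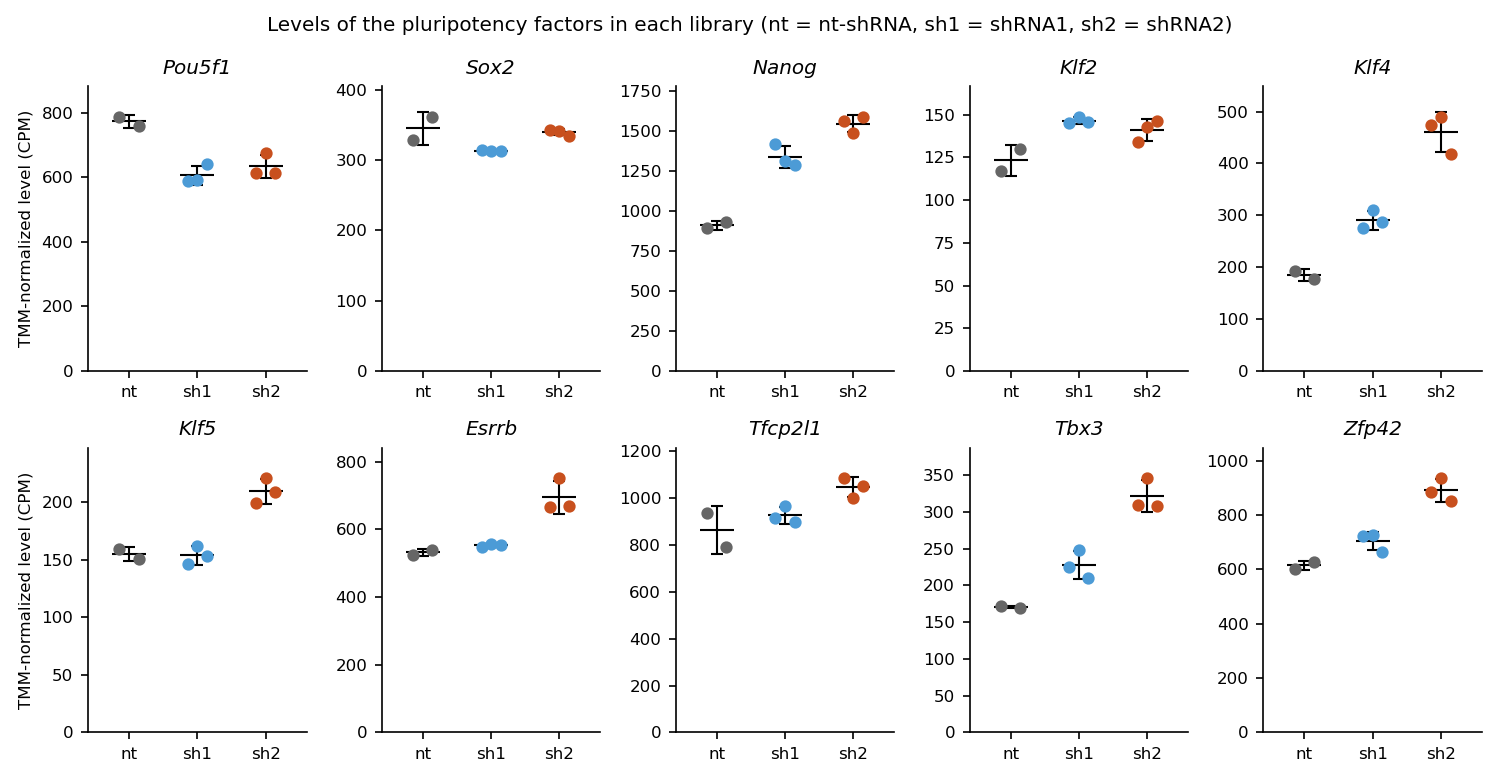
TMM-normalized level (CPM, y axis from 0) of each gene in each library, with points for libraries and black bars for the mean and SD of the 2 nt-shRNA, 3 shRNA1 and 3 shRNA2 libraries. *Pou5f1* lies below both controls in all 6 KD libraries, *Nanog*, *Klf4* and *Tbx3* lie above them, and *Klf5* and *Esrrb* stand apart mainly with shRNA2.

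*Pou5f1* (chromosome 17, 35506018 to 35510772, plus strand, GRCm38) was the only member called lower. It stood at 788 and 760 CPM with nt-shRNA, at 587, 591 and 641 CPM with shRNA1, and at 614, 675 and 614 CPM with shRNA2. The KD libraries did not overlap the controls and overlapped each other. Against nt-shRNA, shRNA1 gave a log2 fold change of -0.35 (standard error, SE, 0.0641, edgeR adjusted p = 0.000372) and shRNA2 -0.29 (SE 0.0642, adjusted p = 0.000862), a level 21.7% and 18.0% lower. The hairpins did not differ by the test between them (0.07, adjusted p = 0.4). Of the exonic bases of *Pou5f1*, 14.1% are shared with the opposite-strand gene *Gm19553*, and the counting did not use strand.

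*Sox2* (chromosome 3, 34650405 to 34652461, plus strand), the partner of OCT4 on DNA, had 329 and 362 CPM with nt-shRNA, 314, 312 and 313 CPM with shRNA1, and 342, 342 and 335 CPM with shRNA2. The shRNA1 libraries lay below both controls and the shRNA2 libraries between them. No comparison passed the threshold (edgeR adjusted p = 0.0771 for -0.14 under shRNA1, and 0.749 for -0.02 under shRNA2). Over the 15 other settings the shRNA1 value ran from -0.21 to -0.03 and was called in none. With library size as the only scaling the shRNA2 value was 0.06, so no direction is given for it.

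*Nanog* (chromosome 6, 122707489 to 122714633, plus strand), the homeodomain member of the core, was higher with both hairpins. It stood at 892 and 932 CPM with nt-shRNA, at 1418, 1316 and 1287 CPM with shRNA1, and at 1565, 1487 and 1593 CPM with shRNA2. The 3 groups did not overlap. Set against the controls on the log2 scale, shRNA1 gave 0.55 (SE 0.0642, edgeR adjusted p = 3.84e-06) and shRNA2 0.76 (SE 0.0646, adjusted p = 1.29e-08), and shRNA2 was 0.21 above shRNA1 (adjusted p = 0.0076). Core factors thus moved in both directions, with *Nanog* higher and *Pou5f1* lower in the same libraries.

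Among the Krüppel-like factors, *Klf4* (chromosome 4, 55527143 to 55532466, minus strand), whose product is also a reprogramming factor, had the largest fold change of the 10 genes with either hairpin. It stood at 193 and 177 CPM with nt-shRNA, at 275, 310.5 and 286 CPM with shRNA1, and at 473, 490 and 418 CPM with shRNA2. The 3 groups did not overlap, and the lowest shRNA2 library was above the highest shRNA1 library. Relative to nt-shRNA the log2 change under shRNA1 was 0.65 (SE 0.0751, edgeR adjusted p = 3.72e-06) and shRNA2 1.32 (SE 0.0766, adjusted p = 1.47e-10), a 1.57-fold and a 2.49-fold level. The difference between the hairpins was 0.66 (adjusted p = 1.31e-06). With shRNA2, 95.1% of all tested genes had a lower log2 fold change.

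*Klf2* (chromosome 8, 72319033 to 72321656, plus strand) stood at 117 and 130 CPM with nt-shRNA, at 145, 149 and 146 CPM with shRNA1, and at 134, 143 and 146 CPM with shRNA2. Every KD library was above both controls, and the hairpins overlapped. Its log2 fold changes, 0.25 under shRNA1 (edgeR adjusted p = 0.006) and 0.19 under shRNA2 (adjusted p = 0.0159), were smaller than those of *Klf4*. Without nt-shRNA replicate 1, the lower control, neither passed (0.18, adjusted p = 0.157, and 0.12, adjusted p = 0.27). Without nt-shRNA replicate 2, the values were larger, 0.32 under shRNA1 and 0.26 under shRNA2. The size of the *Klf2* change thus depended on which control was kept. A fit without a control keeps 1 control library, which is assumed to vary like the other groups. A call can be lost there through the smaller group alone.

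*Klf5* (chromosome 14, 99298691 to 99315036, plus strand) was higher with shRNA2 and not called with shRNA1. It stood at 159 and 151 CPM with nt-shRNA, at 146, 162 and 153 CPM with shRNA1, and at 199, 221 and 209 CPM with shRNA2. The shRNA1 libraries overlapped the controls and the shRNA2 libraries lay above all others. On the log2 scale it changed with shRNA1 by -0.01 (edgeR adjusted p = 0.92) and shRNA2 0.44 (adjusted p = 1.48e-05), and the direct difference was 0.45 (adjusted p = 1.7e-05).

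Because counts grow with transcript length, levels of different genes were compared per kilobase of exon (FPKM). The summed level of *Klf2*, *Klf4* and *Klf5* was 157 FPKM with nt-shRNA, 204 ± 8.61 FPKM (SD, n = 3) with shRNA1 and 268 ± 12.2 FPKM (SD, n = 3) with shRNA2. *Klf4* made up 38.6%, 46.6% and 56.4% of that sum, and *Klf2* 42.5%, 38.9% and 28.5%. Among these KLF transcripts, *Klf2* was thus the most abundant in the controls on average, with library ranges that overlapped those of *Klf4* (63.3 to 70.2 and 58.0 to 63.4 FPKM). *Klf4* was the most abundant of them in every KD library.

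**Figure D2:**
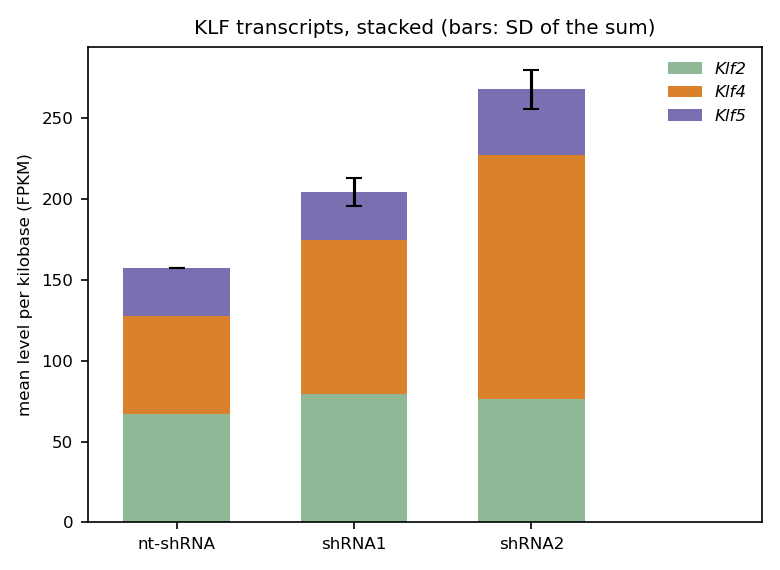
Mean level per kilobase (FPKM, y axis from 0) of *Klf2*, *Klf4* and *Klf5*, stacked for nt-shRNA (2 libraries), shRNA1 (3) and shRNA2 (3), with the SD of the sum as black bars. The *Klf4* segment grows from 60.7 to 95.3 and 151 FPKM, and the *Klf2* and *Klf5* segments change less.

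*Esrrb* (chromosome 12, 86361117 to 86521628, plus strand), the orphan nuclear receptor, stood at 525 and 539 CPM with nt-shRNA, at 547, 556 and 555 CPM with shRNA1, and at 666, 752 and 669 CPM with shRNA2. The shRNA1 libraries were all just above the controls, and the shRNA2 libraries lay apart from both. Against nt-shRNA, shRNA1 gave a log2 fold change of 0.06 (edgeR adjusted p = 0.539) and shRNA2 0.39 (adjusted p = 4.53e-05), with a direct difference of 0.33 (adjusted p = 0.000219).

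*Tfcp2l1* (chromosome 1, 118627945 to 118685168, plus strand), a target of LIF and STAT3, stood at 936 and 791 CPM with nt-shRNA, at 917, 966 and 897 CPM with shRNA1, and at 1086, 1002 and 1052 CPM with shRNA2. Its controls differed from each other more than those of any other member in CPM, and the shRNA1 libraries overlapped them. Set against the controls on the log2 scale, shRNA1 gave 0.10 (edgeR adjusted p = 0.292) and shRNA2 0.28 (adjusted p = 0.0027). Without nt-shRNA replicate 2 the shRNA2 call was lost (0.16, adjusted p = 0.127). The difference between the hairpins (0.18, adjusted p = 0.0372) did not pass in the fits without shRNA1 replicate 1, shRNA1 replicate 3, shRNA2 replicate 1 or shRNA2 replicate 3, with values of 0.17, 0.15, 0.15 and 0.17.

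*Tbx3* (chromosome 5, 119670669 to 119684724, plus strand), a T-box factor of the naive network, stood at 172 and 170 CPM with nt-shRNA, at 226, 249 and 211 CPM with shRNA1, and at 310, 346 and 308 CPM with shRNA2. The 3 groups did not overlap. Relative to nt-shRNA the log2 change under shRNA1 was 0.42 (SE 0.0725, edgeR adjusted p = 0.000257) and shRNA2 0.91 (SE 0.0734, adjusted p = 6.93e-09), and shRNA2 was 0.50 above shRNA1 (adjusted p = 1.59e-05). The change of *Tbx3* was the next largest after *Klf4* with shRNA2.

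*Zfp42* (chromosome 8, 43295063 to 43306980, minus strand), the naive marker, stood at 603 and 626 CPM with nt-shRNA, at 722, 726 and 666 CPM with shRNA1, and at 885, 936 and 852 CPM with shRNA2. The 3 groups did not overlap. The log2 fold change was 0.54 with shRNA2 (SE 0.0645, edgeR adjusted p = 1.08e-06), 0.20 with shRNA1 (adjusted p = 0.0249) and 0.34 between the hairpins (adjusted p = 0.00018). The shRNA1 call was lost without nt-shRNA replicate 1 (0.17, adjusted p = 0.184), nt-shRNA replicate 2 (0.22, adjusted p = 0.0709), shRNA1 replicate 1 (0.18, adjusted p = 0.0785) or shRNA1 replicate 2 (0.17, adjusted p = 0.0905). The pseudogene *Zfp42-ps1*, 98.1% identical over 266 bases, had 8.0% as many counts as *Zfp42*, at 51.0 and 51.9 CPM with nt-shRNA, 54.0 to 58.2 CPM with shRNA1 and 62.9 to 73.9 CPM with shRNA2. Fragments may be divided between these genes.

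**Figure D3:**
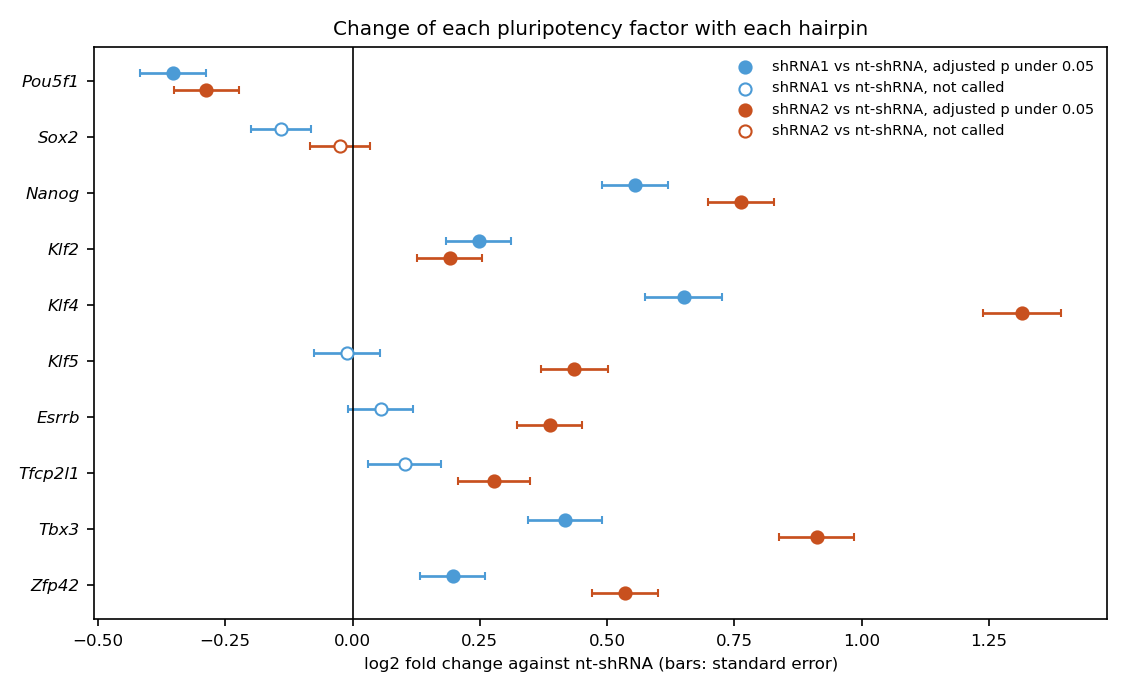
Log2 fold change against nt-shRNA (x axis) of each gene with shRNA1 (blue) and shRNA2 (orange), with standard errors, where filled points passed an adjusted p of 0.05 and open points did not. *Pou5f1* lies left of 0 with both hairpins, *Sox2* is open with both, and *Klf4* reaches 0.65 and 1.32.

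The hairpins were also compared with each other in the same fit, where the controls enter the scaling and the estimate of the spread but not the difference itself. With shRNA2, 7 of the 10 genes were higher than with shRNA1 (*Nanog*, *Klf4*, *Klf5*, *Esrrb*, *Tfcp2l1*, *Tbx3* and *Zfp42*) and none was lower, where 16.9% of all tested genes were called higher and 18.7% lower. Every shRNA2 library was above every shRNA1 library for 8 genes (23.6% of all genes), the 7 above and *Sox2*, and below for none (24.1% of all genes). The median log2 difference of the 10 genes was 0.27. *Pou5f1*, *Sox2* and *Klf2* were not called between the hairpins.

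Ordered by level per kilobase, *Nanog* was the most abundant of the 10 transcripts in each group, at 407 ± 12.7 FPKM (SD, n = 2) with nt-shRNA, 598 ± 30.8 FPKM (SD, n = 3) with shRNA1 and 691 ± 24.5 FPKM (SD, n = 3) with shRNA2. In the controls *Pou5f1* (338 to 351 FPKM) came next, before *Zfp42* (321 to 333 FPKM), and in both KD groups this order was exchanged, with *Zfp42* at 375 ± 17.9 and 474 ± 22.6 FPKM and *Pou5f1* at 270 ± 13.4 and 282 ± 15.7 FPKM (SD, n = 3). The order in the controls holds for counts at *Zfp42* alone, as those at *Zfp42-ps1*, 8.0% as many, were not added. *Sox2* was the fourth in every group. *Klf4* moved from rank 8 in the controls, where its range met that of *Klf2*, to rank 5 with shRNA2. With shRNA1 (90.1 to 102 FPKM) its range overlapped those of *Esrrb* (90.5 to 92.0 FPKM) and *Tfcp2l1* (95.1 to 102 FPKM), so its place among them was not resolved. *Tfcp2l1* and *Esrrb* could not be ordered in the controls (83.8 to 99.2 and 86.8 to 89.2 FPKM) or with shRNA2 (106 to 115 and 110 to 124 FPKM). *Klf5* and *Tbx3* were the least abundant in each group, between 25.6 and 52.3 FPKM.

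The balance of each factor to OCT4 was read as its counts divided by *Pou5f1* counts of the same library, a ratio that needs no scaling between libraries and was added after the levels had been seen. All 9 other members had a higher ratio in each of the 6 KD libraries than in both controls, as did 48.1% of the 17444 tested genes other than *Pou5f1*. The ratio also moves with *Pou5f1* itself, which was lower in these libraries. *Nanog* had 1.13 and 1.23 counts per *Pou5f1* count with nt-shRNA, 2.42, 2.23 and 2.01 with shRNA1, and 2.55, 2.20 and 2.595 with shRNA2. *Klf4* had 0.245 and 0.233 with nt-shRNA, 0.447 to 0.526 with shRNA1 and 0.680 to 0.771 with shRNA2, a 2.01-fold and a 3.04-fold mean ratio. *Sox2* had the smallest change of ratio, 1.16-fold and 1.20-fold. Together the 10 genes took 0.441% and 0.446% of all counts with nt-shRNA, 0.526% to 0.553% with shRNA1 and 0.628% to 0.639% with shRNA2.

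**Figure D4:**
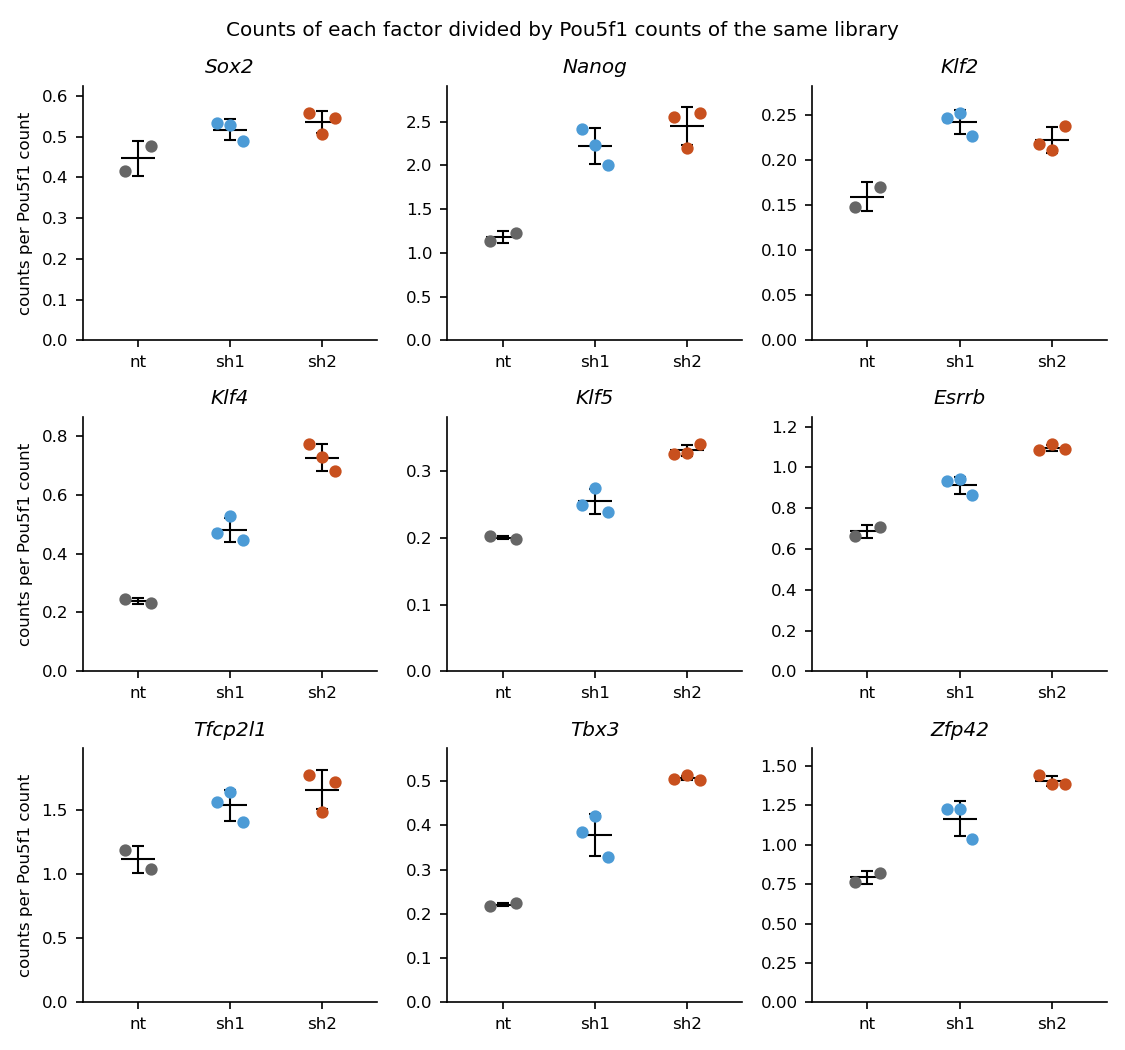
Counts of each gene per *Pou5f1* count of the same library (y axes from 0), with points for libraries and black bars for the mean and SD of the 2 nt-shRNA, 3 shRNA1 and 3 shRNA2 libraries. All 6 KD libraries lie above both controls in each of the 9 panels, least for *Sox2*.

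The rest of the network was followed through 4 further lists, whose counts stand against the 13.8% of all tested genes called higher and 17.1% lower with shRNA1, and the 27.2% and 28.7% with shRNA2. The first held 20 further pluripotency genes. The calls were 5 higher and 7 lower under shRNA1, against 10 and 5 under shRNA2, with median log2 fold changes of 0.03 and 0.20. *Dppa2*, a chromatin factor of early embryos, rose from 21.5 ± 0.808 CPM (SD, n = 2) to 36.4 ± 5.0 and 58.2 ± 6.11 CPM (SD, n = 3), log2 fold changes of 0.75 and 1.43 (adjusted p = 4.17e-05 and 3.06e-09, edgeR). *Tcl1*, a coactivator of AKT, fell by 0.69 and by 1.21 on the log2 scale, and *Utf1*, a chromatin-associated stem cell factor, by 0.63 and 0.86. *Dppa5a*, which encodes an RNA-binding protein abundant in mESCs, fell from 2453 ± 82.2 CPM to 1941 ± 125 and 1258 ± 187 CPM, changes of -0.34 and -0.96.

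Of 12 genes of the LIF and WNT inputs, shRNA1 had 3 higher and 4 lower, shRNA2 5 higher and 3 lower, where the shares of all tested genes were 13.8%, 17.1%, 27.2% and 28.7%. *Lifr*, the LIF receptor, fell from 130.8 CPM in both controls to 95.7 ± 2.67 and 95.3 ± 2.49 CPM (SD, n = 3), log2 fold changes of -0.45 and -0.46 (adjusted p = 1.4e-05 and 2.48e-06, edgeR). *Socs3*, a feedback target of STAT3, was called with shRNA2 (0.52, adjusted p = 3.28e-05, edgeR) and not with shRNA1 (-0.04, adjusted p = 0.784), and the hairpins differed (0.56, adjusted p = 2.14e-05). *Pim1*, another STAT3 target, had -0.35 and -0.49, and *Axin2*, a target of WNT signaling, 0.38 and 0.90, and both genes were called with both hairpins.

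Of 11 genes that promote exit from the naive state, shRNA1 had 2 higher and 2 lower (13.8% and 17.1% of all tested genes) and shRNA2 4 and 2 (27.2% and 28.7%). *Zfp281*, a zinc finger factor, had log2 fold changes of 0.22 and 0.58, each called. *Tcf7l1*, the repressor relieved by GSK3 inhibition, was called with shRNA2 (0.25, adjusted p = 0.00743, edgeR) and not with shRNA1 (-0.16, adjusted p = 0.111). *Zfp706* had 0.08 (adjusted p = 0.441) and -0.18 (adjusted p = 0.034).

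Of 12 formative and primed genes 11 were tested, of which shRNA1 had 3 higher and 0 lower (13.8% and 17.1% of all tested genes) and shRNA2 3 higher and 2 lower (27.2% and 28.7%). With shRNA1, 8 of the 11 were not called. *Dnmt3b*, a de novo DNA methyltransferase, rose from 38.6 ± 2.61 CPM to 61.5 ± 5.23 and 91.9 ± 9.27 CPM, log2 fold changes of 0.67 and 1.25 (adjusted p = 1.84e-05 and 1.79e-09, edgeR). *Foxd3* had 0.60 and 1.74, both called. *Otx2*, a driver of the formative state, was lower with shRNA2 (-0.64, adjusted p = 0.000264) and not called with shRNA1 (-0.16, adjusted p = 0.333). *Cdh2*, at 0.871 CPM in the controls, had 0.46 (adjusted p = 0.238) and 1.13 (adjusted p = 0.0015).

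Markers of other cell states moved beside these changes, and their part in them was not tested. All 6 markers of 2-cell-like cells, a rare state of mESC cultures, were higher with shRNA1 (13.8% of all tested genes) and 5 with shRNA2 (27.2%), and their summed level was 8.85 to 9.63 CPM with nt-shRNA, 41.7 to 60.0 CPM with shRNA1 and 33.3 to 43.8 CPM with shRNA2. For 5 of the 6 the direct test found shRNA2 below shRNA1 (18.7% of all tested genes). The 6 trophectoderm markers summed to 51.2 to 57.1, 40.0 to 46.3 and 26.7 to 30.8 CPM, and most of the fall was *Krt7* (29.3 CPM with nt-shRNA, 18.8 and 4.88 CPM, log2 fold changes -0.63 and -2.59). *Eomes* stood at 20.3, 20.4 and 20.5 CPM, *Hand1*, at 1.99 CPM in the controls, was lower with shRNA2 (-1.62, adjusted p = 0.000447, edgeR), and *Gata3* and *Elf5* were not called. The 7 primitive endoderm markers summed to 44.5 to 46.0, 42.6 to 48.8 and 35.8 to 41.6 CPM. Of these, *Gata6*, at 4.87 CPM in the controls, was lower with shRNA2 (-0.75). *Gata4*, *Sox17*, *Pdgfra* and *Dab2* were called with neither hairpin. *Foxa2* (0.0362, 0.105 and 0.152 CPM) and *Sox7* (0.108, 0.315 and 0.410 CPM) had too few counts to be tested, and their means were higher in both KD groups. The 5 mesendoderm markers summed to 8.88 to 11.4, 12.6 to 14.6 and 14.0 to 16.9 CPM, the 5 neuroectoderm markers to 7.63 to 8.36, 5.77 to 7.81 and 6.19 to 7.62 CPM, and the 5 fibroblast or feeder markers to 4.56 to 4.91, 6.52 to 7.34 and 6.28 to 7.48 CPM. Among these, *Kdr* (0.63 and 0.88, at 3.48 CPM in the controls) and *Col1a2* (1.27 and 1.66, at 0.429 CPM) were higher with both hairpins. With shRNA2 alone *Mixl1* (0.81, adjusted p = 0.0498, edgeR, at 0.451 CPM) and *Gsc* (0.55, adjusted p = 0.0266), whose libraries overlapped the controls, were called higher. No marker was at 0 in all libraries.

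The gene whose log2 level followed each member most closely over the 8 libraries was sought among 9585 genes of at least 10 CPM. That limit did not hold within each group, as *Btbd18*, named below, had a geometric mean of 9.77 CPM with nt-shRNA. These r values describe libraries that fall into 3 groups, so they mostly reflect differences between groups. *Klf4* was closest to *Ino80b* (r = 0.998), *Zfp42* to *H2-M5* (0.997), *Klf5* to *Neat1* (0.996), *Esrrb* to *Sf3a1* (0.996) and *Tbx3* to *Tdh* (0.995). *Nanog* was closest to *Virma* (0.992), *Pou5f1* to *Rps9* (0.992), *Tfcp2l1* to *Dync1li2* (0.963), *Klf2* to *Btbd18* (0.955) and *Sox2* to *Gsta4* (0.942). Among the members themselves, *Tbx3* and *Zfp42* (r = 0.986) and *Tbx3* and *Klf4* (0.986) were the most alike. The most negative values were those of *Pou5f1* with *Nanog* (-0.85) and with *Klf2* (-0.85).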

How the data were processed

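Fragments of poly(A)-selected, paired-end libraries were aligned to mm10 (GRCm38) with STAR and assigned to exons of GENCODE M24 with featureCounts 1.6.2 without strand by the authors, who deposited raw counts for each of 55385 genes. Symbols were matched by Ensembl identifier for 55144 genes. The deposited exon length gave FPKM.

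Counts were tested in R 4.3.3 with edgeR 4.0.16 (filterByExpr, TMM, glmQLFit and glmQLFTest) over all 8 libraries with 1 coefficient per group, as nt-shRNA had 2 libraries, and p-values were adjusted by Benjamini-Hochberg over 17445 genes. Standard errors were taken from the F statistic. The authors used DESeq2, which was tried here (version 1.42.0) as an alternative, beside other scalings, filters, the groups compared alone, a replicate block and each library left out. The code was tested on simulated data. Near-identical transcripts were sought with BLAST 2.17.0 (at least 95% identity over 200 bases), and no per-sample column was left unused.

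The members and gene lists were chosen with earlier results of these data known. The members, *Eftud2* and, from each list, the 3 genes with the smallest adjusted p with shRNA2 plus the gene furthest against the list's median are named, apart from 1 gene that is not reported here, and markers named beyond these were chosen after their values were seen. The motif letters were set in the course of the analysis, without a rule fixed in advance: CCNCNCCC was the KLF motif searched first, and CCACNCCC was added after its matches were seen. The ratio to *Pou5f1* was also added after levels were seen.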

Additional observations from a re-analysis of the deposited data

Results flagged for a closer look

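The response to the hairpins, each against the same 2 nt-shRNA libraries, differed for 7 of the 10 genes by the direct edgeR test of shRNA2 against shRNA1. The log2 differences were 0.66 for *Klf4*, 0.50 for *Tbx3*, 0.45 for *Klf5*, 0.34 for *Zfp42*, 0.33 for *Esrrb*, 0.21 for *Nanog* and 0.18 for *Tfcp2l1*, all higher with shRNA2, where 16.9% of all tested genes were called higher and 18.7% lower. *Eftud2* itself did not pass between the hairpins (-0.11, adjusted p = 0.164, edgeR), except without shRNA2 replicate 3 (-0.19, adjusted p = 0.0127). Its difference was -0.07 (adjusted p = 0.5) without shRNA2 replicate 1 and -0.08 (adjusted p = 0.405) without shRNA2 replicate 2. By qPCR, the paper found a higher knockdown with shRNA2 than with shRNA1. Single values were not tested for outliers in groups of 2 and 3. Over the tested genes, the chi-square statistic per gene on raw counts was 11.6 between the 2 controls. It was 8.09 and 7.43 between shRNA1 replicate 3 and replicates 1 and 2, and 3.00 between those 2. Within shRNA2 it ran from 3.41 to 7.83. This statistic also grows with depth, and the 2 controls were the deepest libraries, so the groups are not compared on equal terms.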

How the results depend on the processing

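Over 15 alternative settings, the 450 values of the members (30 log2 fold changes) kept direction and side of the threshold in 427 cases, lost the call in 12, gained it in 2 and changed sign in 9. The sign changes concern values that were not called. *Klf5* with shRNA1 was 0.020 with at least 10 counts in every library, 0.10 with library size alone and 0.011 with the groups compared alone, and -0.051 to 0.029 when 1 library was left out. *Sox2* with shRNA2 was 0.00105 with at least 10 counts in every library, 0.064 with library size alone, and -0.095 to 0.044 when 1 library was left out, and *Tfcp2l1* with shRNA1 was -0.015 to 0.23. Library size alone moved the median of all genes to 0.11 with shRNA1 and 0.09 with shRNA2, and the share of calls that were higher from 44.7% to 70.5% and from 48.7% to 58.9%. *Esrrb* (0.17, adjusted p = 0.0394, edgeR) and *Tfcp2l1* (0.22, adjusted p = 0.0185) were then called with shRNA1, and *Tfcp2l1* between the hairpins was not (0.15, adjusted p = 0.0596). The genes called with shRNA1 numbered 5388, and 2948 to 5903 when 1 library was left out, lowest without nt-shRNA replicate 1. The deviations of the libraries gave no clear sign of pairing by replicate number. Values of r ran from -0.03 to 0.07 for the same number and from -0.08 to 0.03 for different numbers. For qPCR, the paper compared each KD replicate with its corresponding control, so pairing remains possible. With a replicate block 6018, 10034 and 6518 genes were called for shRNA1, shRNA2 and the hairpins compared, no call of a member changed, and *Eftud2* passed with shRNA1 (-0.21, adjusted p = 0.0206). With 2 controls, each control weighs on both comparisons. Counts carry no isoform information.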
